A study of Rattus norvegicus with 10 samples.

Results

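Gastric mucosa of rats that received honokiol before indomethacin was compared with gastric mucosa of control rats, by counting reads over 16346 genes. The comparison was taken from the sample labels: the 2 libraries labelled honokiol plus indomethacin were set against the 2 control libraries, which makes 4 of the 10 libraries of the study. All libraries came from Sprague Dawley rats, with gastric mucosa as the tissue and epithelial cells as the labelled cell type. Honokiol was injected into the peritoneum at 40 mg/kg, and indomethacin was given by mouth at 48 mg/kg 30 min later. Indomethacin alone was given at the same dose, and aspirin at 400 mg/kg and diclofenac at 75 mg/kg, each by mouth with 4 h to sampling and each in 2 libraries. The time label of the honokiol plus indomethacin libraries reads 0.5 h, the length of the honokiol lead, so sampling at 4 h rests on the general protocol. Controls carry no drug in their labels, and whether they received a vehicle is not stated. No group received honokiol alone, so an effect of honokiol by itself and an effect on the response to indomethacin cannot be told apart.

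Indomethacin, aspirin and diclofenac are non-steroidal anti-inflammatory drugs, which block the cyclooxygenases that make prostaglandins. Prostaglandins sustain the mucus, bicarbonate and blood flow that shield the stomach lining from its own acid, and their loss exposes the mucosa to injury. Honokiol is a lignan of magnolia bark, here given as a pretreatment, and the question was how much of the transcript response remained with it.

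The files list genes as Ensembl identifiers with exon coordinates and no symbols. None could be given a name, since 0 of the 32623 were found in the reference table. Features are therefore given by position, number of listed exons and summed exon length, with no name and no role, and the labelled tissue and cell type could not be checked against marker genes. Coordinates are those of the files, whose build is not given in the sources used. Library totals were 27981982 and 27082360 counts for honokiol plus indomethacin and 35617694 and 32198888 counts for control. Over all 10 libraries they ran from 23892226 to 44977459. The 2 honokiol plus indomethacin libraries had 3393 and 2733 counts on 7 Y-chromosome features, the indomethacin libraries 4438 and 2, and the 4 aspirin and diclofenac libraries 0 to 47. The control libraries had 3582 such counts in replicate 1 and 1 in replicate 2. Both honokiol plus indomethacin libraries thus held Y reads and only 1 of the controls did, so sex moved in part with the comparison. The labels leave unsaid whether a group's libraries are from different rats, so the tests measure the spread between these libraries. In bulk tissue, fewer cells of a type and less RNA per cell cannot be told apart.

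With honokiol pretreatment, no gene passed the test against control. In edgeR's quasi-likelihood test with Benjamini-Hochberg adjustment, 0 of 16346 genes (0%) had an adjusted p under 0.05, and the smallest adjusted p was 0.2. Unadjusted p was under 0.05 for 816 genes (4.99%), of which 491 (3%) were higher and 325 (1.99%) lower. In the same fit, indomethacin alone against the same controls gave 123 genes higher (0.752%) and 4 lower (0.0245%), 127 in all (0.777%). The median standard error of a log2 fold change in the honokiol plus indomethacin comparison was 0.289, and the median size of the log2 fold change was 0.252. A count of 0 calls is therefore no measure of equality between the groups at this precision.

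The count of calls depended on the tool and the filter. DESeq2 called 16 of the 13098 genes to which it gave an adjusted p (0.122%), 14 higher and 2 lower. The edgeR test without its low-count filter called 153 genes. A fit on the 4 compared libraries alone called 3 genes. The 127 calls for indomethacin against control came down to 1 when control replicate 2 was left out, to 21 without control replicate 1 and to 52 without indomethacin replicate 2, and they became 200 and 192 without diclofenac replicate 1 or 2.

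The genes with the smallest unadjusted p are described next as values, since none of them passed the adjustment. The smallest p belonged to a feature of 10 exons at chr9:10963723-10971277. It had 12.5 and 12.7 CPM (counts relative to the library total after scaling by TMM factors) with honokiol plus indomethacin. Indomethacin alone gave 2.51 and 3.37 CPM, aspirin 3.79 and 3.43 CPM, diclofenac 3.02 and 2.31 CPM, and control 3.73 and 4.54 CPM. Both honokiol plus indomethacin libraries stood above all 8 others, which lay close together. The log2 fold change against control was 1.61 ± 0.24 (SE), with an adjusted p of 0.2 in edgeR. DESeq2 gave an adjusted p of 0.0012 for it, and the range over the alternatives tried was 1.4e-05 to 0.88. Against indomethacin alone the feature passed the test, at a log2 fold change of 2.1 ± 0.24 and an edgeR adjusted p of 0.0078.

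A single-exon feature of 2191 nt at chr4:64088900-64091090 came next. It had 1.91 and 2.02 CPM with honokiol plus indomethacin, against 0.0316 and 0.0668 CPM in controls. The other 6 libraries had 0 to 0.0771 CPM, so the feature was close to undetected wherever honokiol was not given. Its 3 control counts set against 113 counts gave a ratio of 40.3, with an exact 95% Poisson interval of 13.4 to 198 that covers counting error only. The edgeR adjusted p was 0.2 against control and 0.018 against indomethacin alone, but this feature and the next passed the filter on low counts only through the honokiol plus indomethacin libraries, in which they are high. A feature of 20 exons at chr14:87312203-87421659 had a similar profile, with 1.0 and 1.46 CPM with honokiol plus indomethacin and 0.0947 and 0.134 CPM in controls. Its other 6 libraries had 0.0454 to 0.195 CPM, and its log2 fold change against control was 3.39 ± 0.66 with an edgeR adjusted p of 0.42.

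For other features of the 10, the libraries of indomethacin alone also stood above the controls. The feature of 5 exons at chr12:6711747-6740714 had 3.21 and 2.58 CPM with honokiol plus indomethacin, 4.96 and 5.16 CPM with indomethacin and 0.821 and 0.668 CPM in controls. Both honokiol plus indomethacin libraries lay between the controls and the indomethacin libraries. ENSRNOG00000028616, with 10 exons at chr3:171213936-171219871, had 1.46 and 0.711 CPM with honokiol plus indomethacin, 2.82 and 1.31 CPM with indomethacin, and 0.0316 and 0.0334 CPM in controls. Here the honokiol plus indomethacin and indomethacin libraries overlapped, and both stood far above 2 control counts in all, at a count ratio of 34.2 (exact 95% interval 9.09 to 289) and 62.6 (17.0 to 522). A feature of 123 exons at chr1:87959712-88066101 had 1.23 and 1.31 CPM with honokiol plus indomethacin, 0.892 and 0.848 CPM with indomethacin, and 0.0316 and 0.234 CPM in controls. Its log2 fold change against control was 3.24 ± 0.61 with honokiol and its values there were above those of all 8 other libraries. This feature and ENSRNOG00000028616 passed the filter on low counts only through libraries that received a drug. A difference from control was thus in part set by the filter for both.

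Of the other 4 members, 3 had smaller folds. The feature of 8 exons at chr7:35309265-35543759 had 16.7 and 15.9 CPM with honokiol plus indomethacin, against 6.73 and 7.71 CPM in controls. The feature of 17 exons at chr4:148398892-148446303 had 3.46 and 3.55 CPM against 1.29 and 1.14 CPM in controls. The feature of 17 exons at chr11:68493035-68578995 had 5.73 and 6.02 CPM against 2.68 and 2.34 CPM in controls. In each of these the groups did not overlap, as was the case for 2987 genes (18.3%) with both honokiol plus indomethacin libraries above both controls and 3173 (19.4%) with both below. The last, 6 exons over 789 nt at chr7:14821691-14828517, had 0.777 and 0.374 CPM with honokiol plus indomethacin and 0 counts in both controls, at least 12.1-fold higher when 3 counts are taken as the floor of the control group. It passed the filter on low counts only through libraries that received indomethacin, so a difference from control was set by the filter. All 10 features were higher with honokiol plus indomethacin than in control, and 6 of them stood above all 8 other libraries, as did 524 of all genes (3.21%). They were chosen by their p in this same comparison, so these counts are a description.

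**Figure D1:**
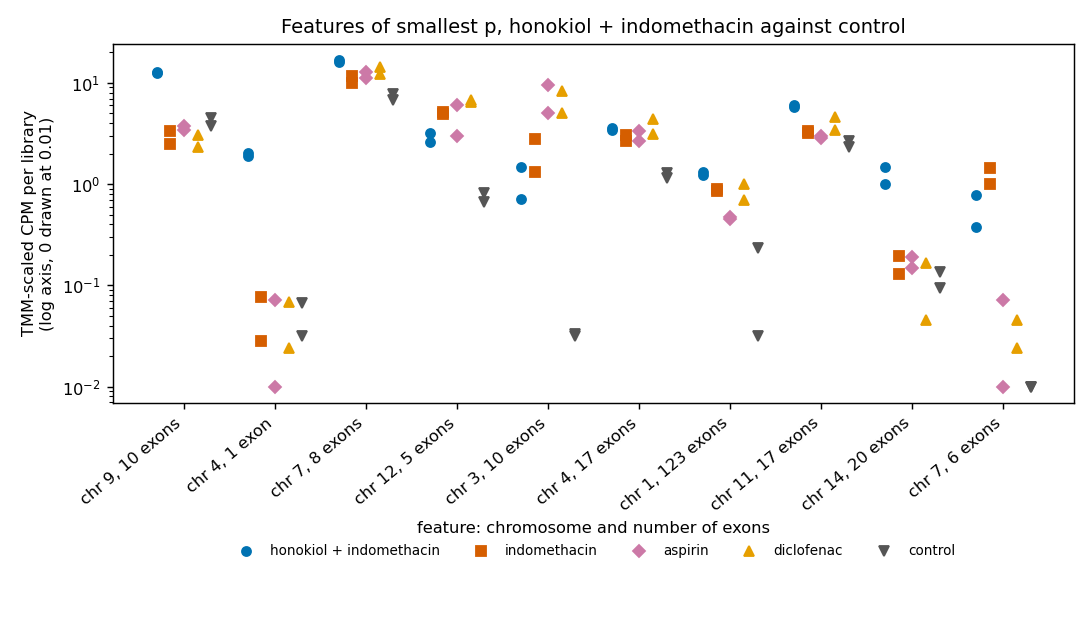
TMM-scaled CPM of the 10 features of smallest p in each of the 10 libraries, on a log axis with values of 0 drawn at 0.01; symbols and colours mark the groups. The honokiol plus indomethacin points stand apart from all others at the chromosome 9 feature (12.5 and 12.7 CPM), the single-exon chromosome 4 feature (1.91 and 2.02 CPM) and the chromosome 14 feature (1.0 and 1.46 CPM), and lie between the indomethacin and control points at the chromosome 12 feature (3.21 and 2.58 CPM).

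The 816 features at an unadjusted p under 0.05 in edgeR were 4.99% of all genes, about the share this cutoff passes with no difference. None passed the adjustment, so their structure by direction is a description. Of the 491 higher at an unadjusted p under 0.05, 5.3% had a single exon, against 24.6% of the 325 lower ones and 9.49% of all genes tested. The median exon length was 2862 nt for the higher, 1305 nt for the lower and 2171.5 nt for all genes.

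The 123 genes that rose with indomethacin alone were used to describe what remained with honokiol. A choice by a rise of indomethacin over these controls favours a high median with indomethacin and a lower one with honokiol. They were chosen with the indomethacin and control libraries, which also enter the comparisons of honokiol plus indomethacin with each, so their values are a description. None of the 123 passed the test for honokiol plus indomethacin against control. Their median log2 fold change against control was 0.59 with honokiol plus indomethacin (quartiles 0.26 and 1.1) and 2.57 with indomethacin alone. Over all genes tested these medians were -0.01 and -0.02. Diclofenac gave a median of 2.56 and aspirin of 2.5 for the same genes, which share the control libraries, with 108 called higher with diclofenac (4.76% of all genes were) and 109 with aspirin (9.5%).

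The shift was present in each library. The median over the 123 genes of the log2 ratio to the control mean (CPM with 0.5 added) was 0.45 and 0.35 in the honokiol plus indomethacin libraries. It was 1.84 and 2.0 with indomethacin, 1.71 and 2.09 with aspirin, 1.8 and 2.18 with diclofenac, and 0.07 and -0.07 in the controls. The 2 honokiol plus indomethacin libraries thus lay closer to the controls than to any of the 6 libraries of an NSAID alone. Of the 123 genes, 87 and 79 reached 1 CPM in the honokiol plus indomethacin libraries, 117 and 119 in the indomethacin libraries, and 69 and 64 in the controls.

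**Figure D2:**
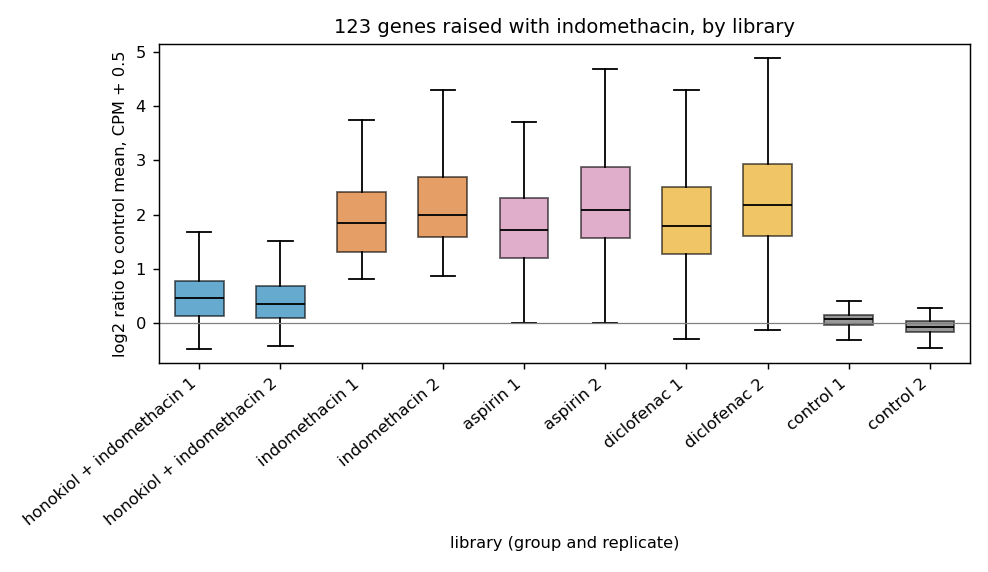
Box plots of the log2 ratio to the control mean (CPM with 0.5 added) for the 123 genes that rose with indomethacin, 1 box per library; boxes span the quartiles, the line is the median and whiskers reach the last value within 1.5 box lengths. The honokiol plus indomethacin medians are 0.45 and 0.35, those of the 6 libraries of an NSAID alone 1.71 to 2.18, and those of the controls 0.07 and -0.07.

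With honokiol plus indomethacin, 16 of the 123 genes had a log2 fold change against control under 0, 73 had one of 0 to 1, 25 of 1 to 2, and 9 of at least 2. Where a standard error could be computed, the 95% interval of the log2 fold change held 0 for 78 genes, lay above 0 for 42 and below 0 for 2. Over all genes tested, unadjusted p was under 0.05 for 3% higher and 1.99% lower, but the 123 genes were chosen with the same control libraries, so nothing is read from these counts. In the direct contrast of honokiol plus indomethacin against indomethacin, 56 of all genes were called by edgeR (0.343%), 49 lower (0.3%) and 7 higher (0.0428%). No call was left without honokiol plus indomethacin replicate 1, 3 were left without its replicate 2 and 9 without indomethacin replicate 2, whereas 118 and 116 were made without diclofenac replicate 1 or 2. Among the 123 genes, 44 were called lower there.

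**Figure D3:**
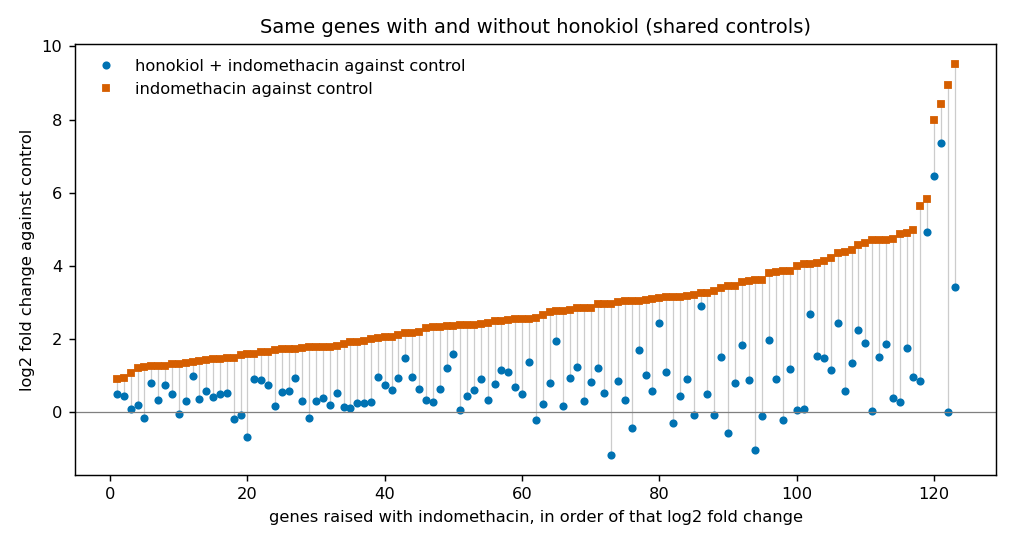
Log2 fold change against the shared controls for each of the 123 genes that rose with indomethacin, with honokiol plus indomethacin (circles) and with indomethacin alone (squares), ordered by the value with indomethacin. The circles lie mostly between 0 and 1 (73 genes), with 9 genes at 2 or more and 16 under 0.

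At the low end, genes that rose strongly with indomethacin were at or below control level with honokiol. The feature of 6 exons at chr1:80214494-80221710 had 0.162 and 0.15 CPM with honokiol plus indomethacin, against 3.74 and 4.29 CPM with indomethacin and 0.379 and 0.267 CPM in controls. Its log2 fold change against indomethacin was -4.65 ± 0.4, at an edgeR adjusted p of 0.0014, the smallest of that contrast. It passed the filter on low counts only with the libraries of an NSAID alone, so this difference is in part set by the filter. The feature of 17 exons at chr5:159845774-159874206 had 2.3 and 2.32 CPM with honokiol plus indomethacin, against 13.6 and 17.9 CPM with indomethacin and 3.13 and 2.17 CPM in controls. In it the honokiol plus indomethacin values lay between those of the 2 controls, and the edgeR adjusted p against indomethacin was 0.0019. The more abundant feature of 4 exons at chr4:168832910-168851652 had 15.4 and 12 CPM with honokiol plus indomethacin, against 59.3 and 70.7 CPM with indomethacin and 24 and 19.3 CPM in controls. Both honokiol plus indomethacin libraries were under both controls there, with a log2 fold change of -0.66 ± 0.29 and an edgeR adjusted p of 0.83.

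ENSRNOG00000002843, with 4 exons at chr14:18860264-18862407, was also raised with indomethacin, but belonged to the high end. Its log2 fold change of honokiol plus indomethacin against control was 3.42 ± 2.51, which rested on very few counts. The feature had 1 count in each honokiol plus indomethacin library, 80 and 118 counts in the indomethacin libraries and 0 counts in both controls. Indomethacin was thus at least 54.4-fold higher than control by the same floor, while honokiol plus indomethacin was at 0.0131 times the indomethacin level (exact 95% interval 0.00158 to 0.048). The edgeR adjusted p for honokiol plus indomethacin against indomethacin was 0.022. This feature passed the filter on low counts only through libraries of an NSAID alone, and it was chosen by its call with indomethacin. Both folds and this adjusted p are thus in part set by the filter and the choice. On the CPM scale the feature had 0.0324 and 0.0374 with honokiol plus indomethacin, 1.99 and 6.79 with aspirin and 7.8 and 8.93 with diclofenac.

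The features at the high end were chosen for the highest log2 fold changes of honokiol plus indomethacin against control. Their honokiol plus indomethacin libraries stood above the controls, as the choice favours, though mostly under the indomethacin libraries. A set of 3 features on chromosome 7 had reads mainly in the 4 libraries that received indomethacin. All 3 were called with indomethacin, and the pair of 6 exons passed the filter on low counts only through libraries that received it. For this pair, few reads elsewhere are thus set by the filter and the choice. The feature of 24 exons at chr7:14529482-14574361 had 2.56 and 1.46 CPM with honokiol plus indomethacin, and 6.11 and 4.29 CPM with indomethacin. Aspirin gave 0.331 and 0.0473 CPM, diclofenac 0.159 and 0.238 CPM, and control 0.379 and 0.234 CPM, so neither aspirin nor diclofenac stood above the controls. The chromosome 7 feature among the 10 of smallest p, at 0.777 and 0.374 CPM with honokiol plus indomethacin, had 1.45 and 1.0 CPM with indomethacin and at most 0.071 CPM in aspirin, diclofenac and control libraries. A feature of the same 6 exons and 789 nt at chr7:13881583-13887854 had 0.389 and 0.225 CPM with honokiol plus indomethacin, 0.948 and 0.873 CPM with indomethacin and 0 counts in controls. The pair may be copies that share reads, so their values are uncertain as separate genes, and the 24-exon feature overlaps another listed feature.

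The raised genes that were under 1 CPM in controls mostly stayed under 1 CPM with honokiol. Of 46 genes under 1 CPM in both controls and at 1 CPM or more in both indomethacin libraries, 11 reached 1 CPM in both honokiol plus indomethacin libraries, 28 in neither and 7 in 1 of them. Among the 11, a single-exon feature of 863 nt at chr10:106975178-106976040 had 2.04 and 1.5 CPM with honokiol plus indomethacin, against 11.5 and 19.7 CPM with indomethacin and 0.474 and 0.568 CPM in controls. It stood above control with honokiol and well under indomethacin, with a log2 fold change of -3.13 ± 0.41 and an edgeR adjusted p of 0.018 in that contrast. Over all genes tested, 111 (0.679%) were under 1 CPM in both controls and at 1 CPM or more in both honokiol plus indomethacin libraries, and 71 (0.434%) were the reverse. With indomethacin alone, these counts were 220 (1.35%) and 81 (0.496%).

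The longest run of raised genes, with neighbouring starts at most 2000000 bases apart, lay on chromosome 6 and held 7 of the 123. Between positions 138054662 and 143065639, 70 features were tested, 66 of them with at most 4 exons. Their summed level was 182 and 112 CPM with honokiol plus indomethacin, 500.0 and 426 CPM with indomethacin, and 86.8 and 122 CPM in controls. A single feature of 48 exons at chr6:138054662-138662511, which overlaps 12 others, had 88.8 and 53.7 CPM of this with honokiol plus indomethacin, 300.0 and 283 CPM with indomethacin, and 45.5 and 70.9 CPM in controls. In both the sum and this feature, the honokiol plus indomethacin and control libraries overlapped and lay under the indomethacin libraries. The median log2 fold change of the 70 against control was 0.46 with honokiol plus indomethacin and 2.03 with indomethacin. The member at chr6:139140679-139142218 had 5.12 and 3.03 CPM with honokiol plus indomethacin, 7.06 and 5.99 CPM with indomethacin and 0.821 and 0.668 CPM in controls. The member at chr6:143065206-143065639 had 0.421 and 0.15 CPM with honokiol plus indomethacin, 6.44 and 2.44 CPM with indomethacin and 0.221 and 0.334 CPM in controls, so its values with honokiol overlapped those of control. Short neighbouring features of this kind may share reads.

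Only 4 genes fell with indomethacin, and honokiol pretreatment was not alike across them. The feature of 9 exons at chr15:49069145-49177166 had 5.67 and 5.31 CPM with honokiol plus indomethacin, against 0.948 and 1.26 CPM with indomethacin and 4.99 and 3.91 CPM in controls. Both honokiol plus indomethacin libraries were above both controls, and the gene was higher than with indomethacin by a log2 fold change of 2.31 ± 0.39 (edgeR adjusted p = 0.036). ENSRNOG00000029792, at chr17:14607442-14627937, had 12 and 10.6 CPM with honokiol plus indomethacin, 10.5 and 9.92 CPM with indomethacin and 20.4 and 24.9 CPM in controls. ENSRNOG00000047786, at chr17:15447716-15467359, had 8.74 and 7.37 CPM with honokiol plus indomethacin, 7.42 and 6.99 CPM with indomethacin, and 14.5 and 16.7 CPM in controls. For both chromosome 17 genes the honokiol plus indomethacin values were near those of indomethacin and under those of control, with log2 fold changes against control of -1.0 ± 0.23 and -0.95 ± 0.22 and an edgeR adjusted p of 0.66 for each. The second of these overlaps a feature on the opposite strand, and no source used here tells how the counting treated strand. The fourth, at chr20:10727513-10729072, had 0.0648 and 0.112 CPM with honokiol plus indomethacin, 0.0279 and 0.0771 CPM with indomethacin and 0.474 and 0.635 CPM in controls.

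Of the 16 genes that DESeq2 called against control, 5 were among the 10 of smallest p in edgeR, and the edgeR adjusted p of the 16 ran from 0.2 to 0.83. The feature of 38 exons at chr6:127941526-128080889 had 27.9 and 11.5 CPM with honokiol plus indomethacin, 125 and 25.5 CPM with indomethacin, and 1.33 and 0.501 CPM in controls. Its libraries differed widely within every drug group, from 85.5 to 268 CPM with aspirin and from 99 to 381 CPM with diclofenac. Both of the lower calls were moderate. At chr1:233124092-233145941 the values were 6.8 and 6.96 CPM with honokiol plus indomethacin and 14.9 and 22.9 CPM in controls. At chr20:3611964-3619884 they were 203 and 306 CPM with honokiol plus indomethacin and 569 and 503 CPM in controls. The chromosome 20 feature was as low or lower with aspirin (203 and 151 CPM) and diclofenac (186 and 140 CPM), whereas indomethacin gave 433 and 337 CPM. The 2 higher calls at chr20:2699712-2701815 and chr20:4877324-4879779 had nearly the same values in each library, 16.2 and 19.7 against 17.4 and 20.7 CPM with honokiol plus indomethacin, and may share reads. Both were higher with indomethacin alone, at 29.1 and 46.1 against 30.6 and 48.3 CPM, and also with aspirin and diclofenac.

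Honokiol plus indomethacin was also set against the other 4 groups together, a contrast added after the data were seen. It called 75 features (0.459%) in edgeR's quasi-likelihood test, 33 higher (0.202%) and 42 lower (0.257%). Of the 33, 28 stood above all 8 other libraries in both honokiol plus indomethacin libraries, as did 524 of all genes (3.21%). Of the 42, 14 stood below all 8 others, as did 371 of all genes (2.27%). The 2 directions differed in where the controls lay. The 42 lower features had a median log2 fold change against control of -0.18, and 39 of them were called higher with both aspirin and diclofenac, where 9.5% of all genes were called higher with aspirin and 4.76% with diclofenac. The 33 higher features had a median log2 fold change against control of 0.78, and 9 of them were called lower with both drugs. All 8 other libraries entered the contrast that chose these features. The counts above, against all 8 and with both drugs, are thus in part set by the choice and are a description. Some of the 33 also passed the filter on low counts only through the honokiol plus indomethacin libraries.

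Features of low abundance led the higher calls. The feature of 3 exons at chr18:61563053-61576818 had 0.615 and 1.05 CPM with honokiol plus indomethacin and 0 counts in both controls, at least 16.8-fold higher by the floor of 3 counts. The other 6 libraries held 0 to 0.0681 CPM. Both this feature and the next passed the filter on low counts only through the honokiol plus indomethacin libraries, in which they are high, so a difference was set by the filter. The feature of 4 exons at chr11:36851038-36912229 had 0.583 and 1.01 CPM with honokiol plus indomethacin, 0 counts in controls and at most 0.0907 CPM elsewhere, at least 16.0-fold higher than control by the same floor. The feature of 7 exons at chr2:212696624-212852870 had 1.36 and 1.57 CPM with honokiol plus indomethacin, against 0.316 and 0.234 CPM in controls. In each of these the 2 honokiol plus indomethacin libraries were the highest of the 10.

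Y reads moved with this contrast, since both honokiol plus indomethacin libraries held them and 6 of the other 8 did not. With a term for Y reads in the model, 2 features were called. The chromosome 9 feature was one, at a log2 fold change of 2.21 ± 0.24 against the other groups (edgeR adjusted p = 0.017). The other was a single-exon feature at chr14:46686984-46687136, at -2.99 ± 0.28 (edgeR adjusted p = 0.006), which was not called without the term. Leaving out honokiol plus indomethacin replicate 1 left 2 calls in place of 75, and leaving out its replicate 2 left 3. Leaving out diclofenac replicate 1 gave 131.

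**Figure D4:**
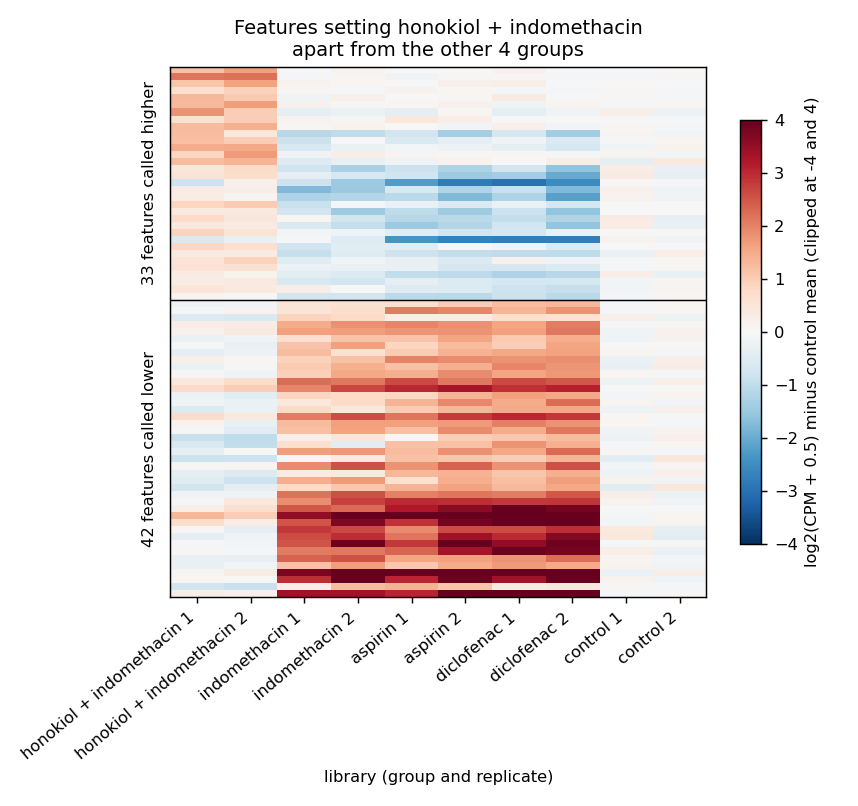
Heat map of log2(CPM + 0.5) minus the control mean for the 75 features called for honokiol plus indomethacin against the other 4 groups, 1 row per feature and 1 column per library, with the colour scale clipped at -4 and 4. In the 33 features called higher (upper block) the honokiol plus indomethacin columns are the warmest for 28, and in the 42 called lower (lower block) the honokiol plus indomethacin and control columns are mostly pale while the aspirin, diclofenac and indomethacin columns are mostly warm.

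The mitochondrial genome encodes ribosomal RNAs, transfer RNAs and subunits of the respiratory chain, and its transcripts made up a large share of these libraries. They took 31.5% and 35.4% of the counts with honokiol plus indomethacin, 32.4% and 21.7% with indomethacin, 23.8% and 22.8% with aspirin, 21.4% and 21.1% with diclofenac, and 35.1% and 36.2% in controls. The honokiol plus indomethacin and control libraries overlapped, and all 4 aspirin and diclofenac libraries were lower. None of the 15 mitochondrial features over 200 nt passed the test against control with honokiol plus indomethacin, in which 0% of all genes did, and their log2 fold changes ran from -0.58 to 0.28 with a smallest edgeR adjusted p of 0.83. The 1571 nt feature at MT:1094-2664 was the most abundant, with 227000 and 277000 CPM with honokiol plus indomethacin and 319000 and 322000 CPM in controls. It held 7018989 of 27981982 and 7414343 of 27082360 counts with honokiol plus indomethacin, and 10101618 of 35617694 and 9643380 of 32198888 in controls. The mitochondrial share thus rested largely on this feature in these libraries. Whether the removal of ribosomal RNA before sequencing bore on the share was not tested. The 1545 nt feature at MT:5323-6867 had 15200 and 21100 CPM with honokiol plus indomethacin and 16600 and 22000 CPM in controls, so its groups overlapped. The 348 nt feature at MT:9451-9798 had the lowest log2 fold change, -0.58 ± 0.3, with 369 and 504 CPM with honokiol plus indomethacin and 689 and 614 CPM in controls.

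**Figure D5:**
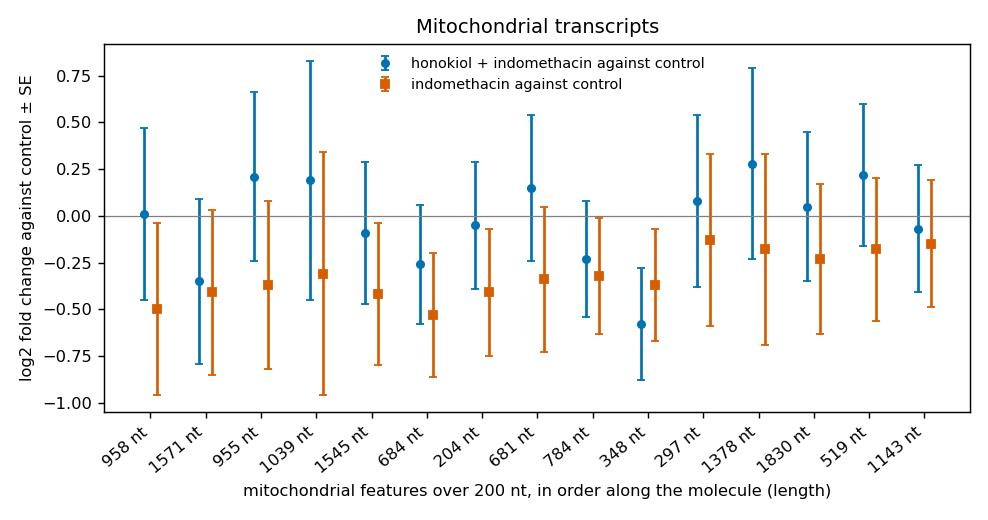
Log2 fold change against control, with its standard error, for the 15 mitochondrial features over 200 nt in order along the molecule, labelled by length, with honokiol plus indomethacin (circles) and with indomethacin alone (squares). The circles run from -0.58 to 0.28 and no feature passed the test in either comparison.

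The most abundant nuclear transcripts showed no call either. Among the 20 of highest average level, both honokiol plus indomethacin libraries were below both controls for 6 and above both for 0, and the groups overlapped for 14. Over all genes tested, 19.4% were below both controls and 18.3% above both. All 20 log2 fold changes were under 0, from -0.72 to -0.05, and the smallest edgeR adjusted p was 0.83. Over all genes tested the median was -0.01. Of these 20 features, 14 had a single exon of at most 350 nt, and the 6 below both controls were among them. Some had nearly parallel values, as at chr17:90799609-90799914 and chr4:139165424-139165742, with 4500 and 4470 against 4160 and 4260 CPM with honokiol plus indomethacin. Such features may share reads, so the 20 are uncertain as separate transcripts. The most abundant, 9 exons at chr9:15266699-15274917, had 149000 and 144000 CPM with honokiol plus indomethacin and 127000 and 187000 CPM in controls.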

How the data were processed

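Gastric mucosa RNA was measured in 10 libraries, 5 groups of 2. Per the labels' protocols, ribosomal RNA was removed from total RNA before stranded libraries were built for paired-end sequencing. The deposited values are raw counts per gene, in featureCounts layout per the file headers. The submitters' processing notes name HISAT2 2.1.0 and cutadapt 1.16, with FastQC 0.11.7, SAMtools, featureCounts and DESeq2. Build, strand setting and handling of multiply matching reads are not given there.

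The counts were tested here in edgeR 4.0.16 (R 4.3.3) by its quasi-likelihood F test with robust moderation. Library sizes carried TMM factors, low genes were removed by filterByExpr (10 counts, 15 in total), and the model held group alone. A single fit to all 10 libraries left 5 residual degrees of freedom. Calls needed an adjusted p (Benjamini-Hochberg) under 0.05. Standard errors were taken as the size of the log2 fold change over the square root of F. For a group without counts, 3 counts in the group as a whole served as the floor for folds. DESeq2 1.42.0, other filters and scalings, a term for Y reads (over 1000 counts on Y features), a replicate block and leaving out each library were tried as alternatives. The fit was tested on simulated data.

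The comparison and lists were chosen with earlier results of these data known. Since no gene was called, the naming rule gave the 10 genes of smallest p, and the genes called with indomethacin whose log2 fold change with honokiol plus indomethacin was highest or lowest. Features of the later contrasts were chosen after their values were seen. The 46 gene lists and the cell type markers could not be applied without symbols. Replicate correlations of log2 CPM ran from 0.963 to 0.976.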

Additional observations from a re-analysis of the deposited data

How the results depend on the processing

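The main test called 0 genes for honokiol plus indomethacin against control, 56 against indomethacin, 127 for indomethacin against control and 75 against the other 4 groups. In that order, no low-count filter gave 153, 699, 834 and 934 calls and DESeq2 gave 16, 243, 376 and 359. Fits on the 2 groups compared gave 3, 250 and 262. A term for Y reads gave 35 against indomethacin and 2 against the other 4 groups, and moved the median log2 fold change of the 123 raised genes to 0.67, from 0.59. The cause of each shift was not tested. Leaving out each library in turn gave 0 to 1 calls against control, 0 to 118 against indomethacin, 1 to 200 for indomethacin against control and 2 to 131 against the other 4 groups, with a median of 0.49 to 0.73. The call against control appeared without honokiol plus indomethacin replicate 2, at chr1:264160129-264172729. Against indomethacin, 0 calls were left without honokiol plus indomethacin replicate 1, 3 without its replicate 2 and 9 without indomethacin replicate 2. The calls for indomethacin against control, from which the 123 genes were taken, came down to 1 without control replicate 2, to 21 without control replicate 1 and to 52 without indomethacin replicate 2. RLE factors, a stricter filter (1 CPM in 2 libraries) and removal of the exon length trend, added after the data were seen, moved no count by over 1.5 times. With a replicate block the calls were 0, 71, 123 and 90 and the median was 0.58. The deviations of same-numbered libraries correlated at 0.298 between honokiol plus indomethacin and control, 0.137 between honokiol plus indomethacin and indomethacin, 0.132 between indomethacin and control and 0.222 between aspirin and diclofenac. The other 6 pairs of groups ran from -0.263 to -0.104, and no label ties the numbers to a shared animal or batch, so the block was kept as an alternative. Of the log2 fold changes of single features against control, those of 5 features changed sign when a library was left out. The range over all alternatives tried, other filters, scalings and models included, was -0.87 to 0.24 at chr10:12995904-12997930, -0.75 to 0.40 at chr18:29329764-29340403 and -0.73 to 0.63 at chr1:220826560-220835066. It was -0.43 to 0.10 at chr5:159845774-159874206 and -0.35 to 0.01 at chr1:80820050-80835701. Depth limits features under 1 CPM most, where the median standard error was 0.65 (average log2 CPM under 0) against 0.22 at a log2 CPM of 3 to 6.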
